A study of Rattus norvegicus with 2 samples.

Results

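Rat liver transcripts of the enzymes that turn farnesyl diphosphate into squalene and squalene into cholesterol were measured after a diet without choline. The set was chosen by name: every probe for a gene whose name in the array files was Fdft1, Sqle, Lss, Cyp51, Tm7sf2, Msmo1 (formerly Sc4mol), Nsdhl or Dhcr7. All 8 genes were found, under 9 of the 41012 distinct probes on the array (Nsdhl had 2 and the others 1 each), and Sc4mol appeared only under its newer name. All 9 probes were well above background in both diets on both arrays, so that all 8 genes were among the 18196 genes tested.

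The Wistar rats (spelled Wister in the labels) were 7 weeks old and had either the choline-deficient diet or the control diet for 10 days. Liver total RNA of the diets was hybridised together on each of 2 arrays with the dyes swapped: array 1 had the choline-deficient sample in the Cy5 channel, and array 2 had it in the Cy3 channel. The labels mention 4 choline-deficient rats and give neither the number of control rats, the sex, nor whether RNA was pooled or the arrays shared extracts. If the arrays shared extracts, their spread is technical only, and so is what the p-values below measure. Having only 2 arrays limits how precise each value can be.

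Cholesterol is made in the endoplasmic reticulum. Squalene synthase joins farnesyl diphosphate units to squalene, squalene epoxidase and lanosterol synthase make the first sterol, and a series of demethylations, reductions and shifts of a double bond leads to cholesterol. When sterols in that membrane are low, the escort protein SCAP carries the transcription factor SREBP2 to the Golgi, where proteases release the part that activates genes of this route. When sterols are high, INSIG proteins hold the complex back in the endoplasmic reticulum. The liver uses the product for membranes, bile acids and lipoproteins.

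The values rest on the 60-base probes whose first 30 bases are shown here, 5′ to 3′ as the array files give them and in lower case throughout, because each names the stretch of transcript that was counted as the gene.
Fdft1: tttctgcagaaaacaaatatcattcgtgat
Sqle: gtgctctataatatttcctctcatctattc
Lss: ttcagtgaggaagggaagaagttgagcctg
Cyp51: acaacaatgattcataccccagaaaaccca
Tm7sf2: gcgtgccttaccgaatcataccgtatgtct
Msmo1: aggtggtctcggagctttgtgaattctcta
Nsdhl, brighter probe: taagaaggcaatagggcaagctaacaaacc
Nsdhl, dimmer probe: tccaaatccagacaacttttacaccatttc
Dhcr7: atccctggctgacttgataaagtctgtctg
The array files place probes in rat build rn4. There, the Sqle probe lies on the plus strand at chr7:96111449-96111508, the Cyp51 probe at chr4:26769628-26769687 and the Msmo1 probe at chr16:26716174-26716233. The Fdft1 probe lies on the minus strand at chr15:42436506-42436565, the Lss probe on the minus strand at chr20:12507929-12507988 and the Tm7sf2 probe on the minus strand at chr1:208700867-208700926. The Dhcr7 probe lies on the plus strand at chr1:204258565-204258624. The Nsdhl probes lie on the plus strand at chrX:158955914-158955973 (brighter) and chrX:158954224-158954283 (dimmer). Whether they fall in coding or untranslated exons was not analysed here.

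All 8 enzyme genes had higher transcript levels in choline-deficient liver on both arrays, and 5 of them passed the test. Sqle, Cyp51 and Msmo1 were about doubled, Dhcr7 and Fdft1 rose by 1.43-fold and 1.34-fold, and Nsdhl, Lss and Tm7sf2 were at 1.21-fold, 1.19-fold and 1.15-fold without passing. The test was limma's moderated test of the mean log2 ratio of choline-deficient over control against 0, two-sided, with Benjamini-Hochberg adjustment over all genes tested and a threshold of 0.05. By this rule 4.37% of all genes tested were called higher and 4.25% lower, and 29.4% of all genes had a ratio above 0 on both arrays. At 23.2% of all genes both choline-deficient levels lay above both control levels. The median log2 ratio was 0.47 over the 8 genes (0.45 on array 1 and 0.49 on array 2) and 0.00 over all genes tested. In bulk liver RNA, more cells of a type and more RNA per cell cannot be told apart.

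**Figure D1:**
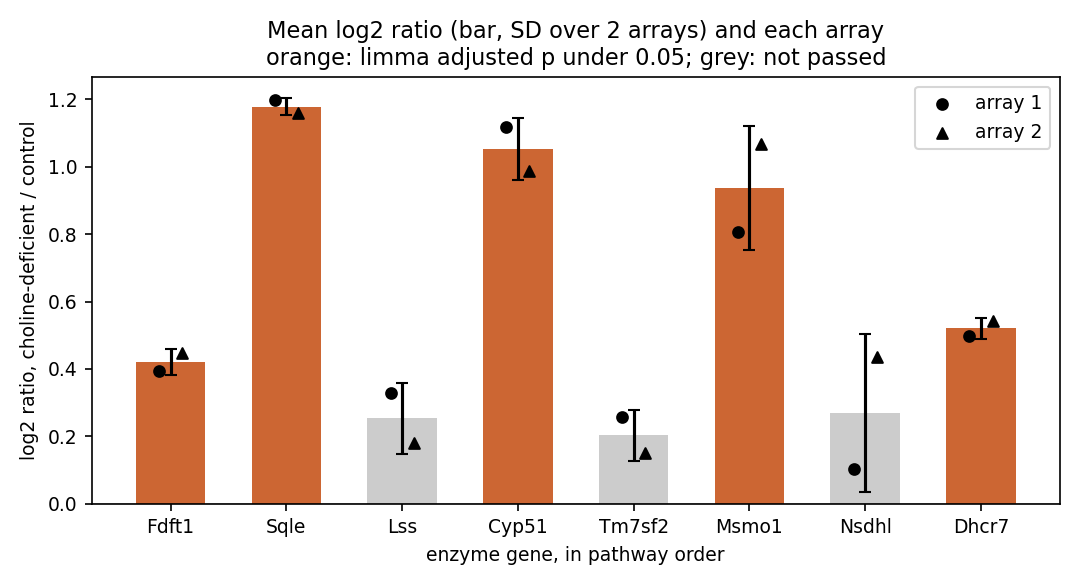
Mean log2 ratio of choline-deficient over control (bars, with SD over 2 arrays) for the 8 enzyme genes in pathway order, with circles for array 1 and triangles for array 2. Orange bars passed limma's test at an adjusted p under 0.05, and all 16 array values are above 0, from 0.10 for Nsdhl on array 1 to 1.20 for Sqle on array 1.

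Fdft1 encodes squalene synthase, the enzyme that commits farnesyl diphosphate to sterols. Its normalized level (log2 units, after loess and scaling of intensities between the arrays) was 10.27 in control and 10.66 in choline-deficient liver on array 1, and 10.27 and 10.71 on array 2. Both choline-deficient values lay above both control values. The log2 ratio was 0.42 ± 0.04 (SD, n = 2 arrays; limma adjusted p = 0.00238).

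Sqle encodes squalene epoxidase, an oxygen-dependent and rate-limiting step after squalene. Its spot gave raw mean signals of 213 in control and 1015 in choline-deficient RNA on array 1. On array 2 they were 428 and 573, and the local background was 41 to 48. Raw signals are not adjusted for the dyes, of which Cy5 was the brighter on this spot in control and choline-deficient RNA alike. Its normalized level was 8.39 in control and 9.59 in choline-deficient liver on array 1, and 8.36 and 9.52 on array 2. After the scaling between arrays, the diets were far apart and the arrays close together. That scaling makes the intensities of the arrays alike in distribution, so closeness of levels between arrays is partly set by it. The log2 ratio of 1.18 ± 0.03, or 2.26-fold, was the 27th highest of all 18196 genes tested (limma adjusted p = 8.01e-15). It was the only gene of the set at 2-fold or more on each array, a size that 0.192% of all genes reached.

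Lss encodes lanosterol synthase, which closes the sterol rings. Its levels were 8.06 in control and 8.38 in choline-deficient liver on array 1, and 8.04 and 8.21 on array 2. Both choline-deficient levels lay above both control levels, as at 23.2% of all genes. The log2 ratio of 0.25 ± 0.10 did not pass (limma adjusted p = 0.128). Its 95% interval was 0.05 to 0.46 before any correction for the number of genes.

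Cyp51 encodes the cytochrome P450 that removes a methyl group from lanosterol. Levels were 10.45 in control and 11.57 in choline-deficient liver on array 1, and 10.57 and 11.55 on array 2. After the scaling between arrays, they gave nearly the same choline-deficient level, and each showed a gap of about 1 log2 unit to control. The log2 ratio was 1.05 ± 0.09, or 2.07-fold (limma adjusted p = 7.41e-13), at 2.17-fold on array 1 and 1.98-fold on array 2.

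Tm7sf2 encodes the sterol reductase that acts on the product of Cyp51. Its levels were 10.00 in control and 10.26 in choline-deficient liver on array 1, and 10.09 and 10.24 on array 2. Again both choline-deficient levels lay above both control levels, as at 23.2% of all genes. The log2 ratio was 0.20 ± 0.08, the smallest of the set, and did not pass (limma adjusted p = 0.280). The lamin B receptor gene Lbr, whose protein has the same reductase activity, was well above background in neither diet.

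Msmo1 encodes the sterol methyl oxidase that starts removal of the next methyl groups. Levels were 13.72 in control and 14.53 in choline-deficient liver on array 1, and 13.65 and 14.72 on array 2. Both choline-deficient values exceeded both control values, and the rise was larger on array 2 (2.09-fold) than on array 1 (1.75-fold). The log2 ratio was 0.94 ± 0.18 (limma adjusted p = 6.17e-11). No spot for a gene was saturated.

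Nsdhl encodes the X-linked sterol dehydrogenase that acts after Msmo1 in the same demethylation. At the brighter probe, which represented the gene, levels were 13.16 in control and 13.26 in choline-deficient liver on array 1, and 13.08 and 13.52 on array 2. Its log2 ratio was 0.10 on array 1 and 0.44 on array 2, the widest spread of the set, with a mean of 0.27 ± 0.23 (limma adjusted p = 0.102). The dimmer probe showed the reverse order, with 0.22 on array 1 and 0.06 on array 2 and a mean of 0.14 ± 0.12. There the diets overlapped, since levels were 10.59 in control and 10.82 in choline-deficient liver on array 1, and 10.52 and 10.57 on array 2. When every kept probe was tested on its own, neither Nsdhl probe passed (limma adjusted p = 0.140 and 0.600).

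Dhcr7 encodes the reductase of the last step of the branch that runs through dehydrocholesterol, the precursor of vitamin D. Levels were 9.81 in control and 10.30 in choline-deficient liver on array 1, and 9.78 and 10.32 on array 2. After the scaling between arrays, which makes their intensities alike in distribution, each diet gave nearly the same level on both arrays. The log2 ratio was 0.52 ± 0.03 (limma adjusted p = 0.000112).

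**Figure D2:**
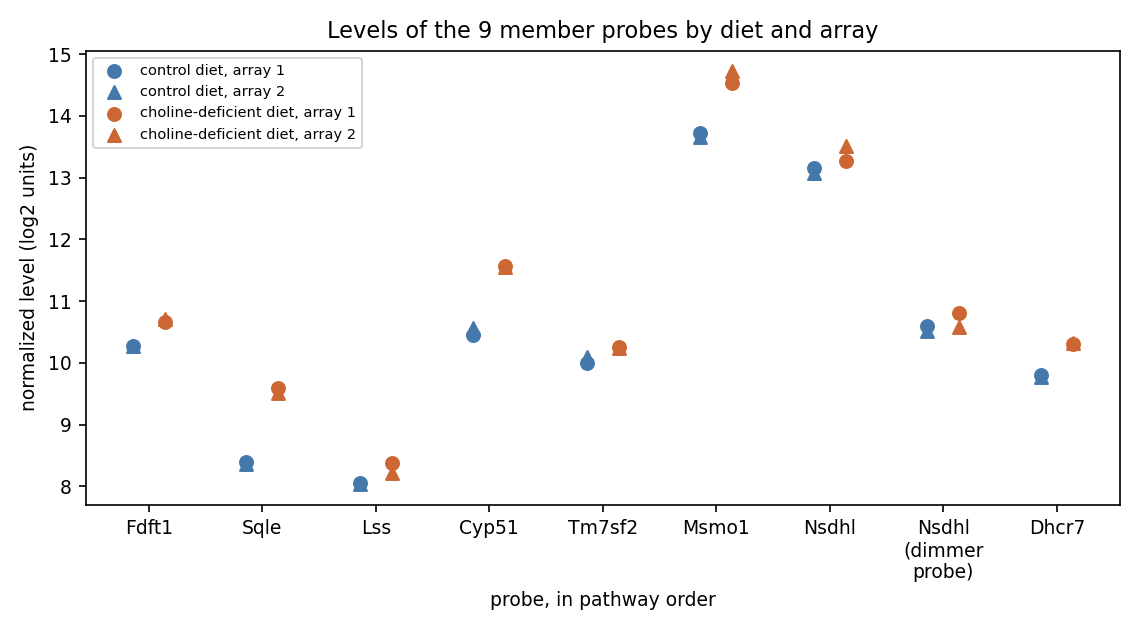
Normalized log2 levels of the 9 probes in control liver (blue) and choline-deficient liver (orange), with circles for array 1 and triangles for array 2. Both choline-deficient values lie above both control values at each probe except the dimmer Nsdhl probe, where 10.57 on array 2 lies below the control value of 10.59 on array 1. Over all genes tested, 23.2% had both choline-deficient values above both control values. Probes bind with different strength, so heights compare diets within a probe and not genes with each other.

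Ordered by log2 ratio, the genes ran Sqle, Cyp51, Msmo1, Dhcr7, Fdft1, Nsdhl, Lss and Tm7sf2, an order that did not follow the order of the steps. By mean ± SD, the neighbours Cyp51 and Msmo1 overlapped, as did Fdft1 and Nsdhl, Nsdhl and Lss, and Lss and Tm7sf2. Between Msmo1 (lower end 0.75) and Dhcr7 (upper end 0.55) lay the widest gap. The SD of a gene over 2 arrays is itself imprecise, and limma's standard error, which pools the spread over genes, was 0.10 for each of the 8. With it, the 95% intervals of Sqle (0.98 to 1.38) and Cyp51 (0.85 to 1.25) overlapped, and so did those of Dhcr7 (0.32 to 0.72) and Fdft1 (0.22 to 0.62). Differences between the genes were not tested.

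**Figure D3:**
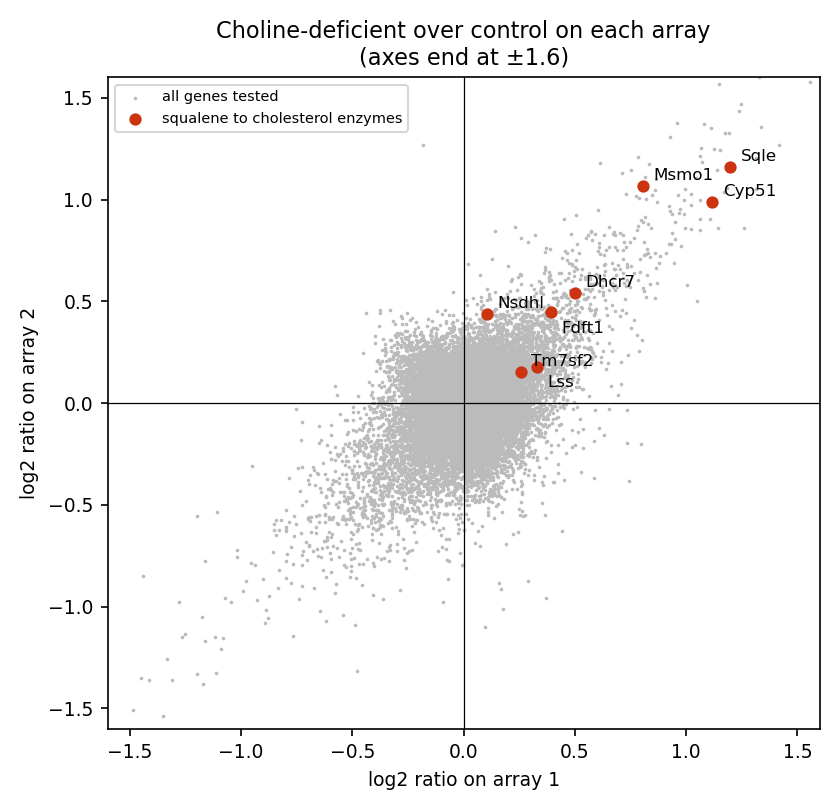
Log2 ratio of choline-deficient over control on array 1 (horizontal) and array 2 (vertical) for all 18196 genes tested (grey) and the 8 enzyme genes (red). All 8 lie in the upper right quadrant, with Sqle, Cyp51 and Msmo1 apart from the mass of genes and Tm7sf2, Lss and Nsdhl within it. Genes beyond 1.6 in either direction are not drawn.

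The ratios that the authors had computed gave the same direction. In the authors' deposited log ratios, put on the log2 scale and turned for the dye swap, Sqle was at 1.67 on array 1 and 1.41 on array 2, above the values from offset-corrected signals. Cyp51 was at 1.19 and 1.03, Msmo1 at 0.88 and 1.01, Dhcr7 at 0.55 and 0.61 and Fdft1 at 0.41 and 0.43 in the authors' deposited log ratios. Lss was at 0.43 and 0.35, Tm7sf2 at 0.27 and 0.13, and the brighter Nsdhl probe at 0.18 and 0.40 by the same authors' deposited values. The authors' deposited p-values, from an error model within 1 array, were under 0.05 on both arrays for the 5 genes that passed limma's test, from 9.21e-11 for Sqle on array 1 to 0.0461 for Fdft1 on array 1. They were above 0.05 on both arrays for Lss, Tm7sf2 and both Nsdhl probes, the lowest being 0.0517 for Lss on array 1. Tested with limma in place of the offset-corrected ratios, the authors' deposited log ratios called none of the 8 genes (6 at an unadjusted p under 0.05) and 0 of all 18196 genes (2122 at an unadjusted p under 0.05), with adjusted p from 0.193 to 0.584 for the 8.

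Without the intensity-dependent loess step, median centring of each array also called 0 of the 8 genes (0 at an unadjusted p under 0.05) and 0 of all genes (19 at an unadjusted p under 0.05), although all 8 means stayed above 0. Under it 3 of the 8 genes had a ratio above 0 on both arrays, against 6.14% of all genes. The centring used the spots of all genes, including dim ones that were not tested. It left the median of all genes tested at 0.65 on array 1 and -0.41 on array 2. Relative to that shift, 6 of the 8 genes were higher on both arrays, against 10.5% of all genes, and the median of the 8 exceeded that of all genes by 0.81 on array 1 and 0.27 on array 2.

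**Figure D4:**
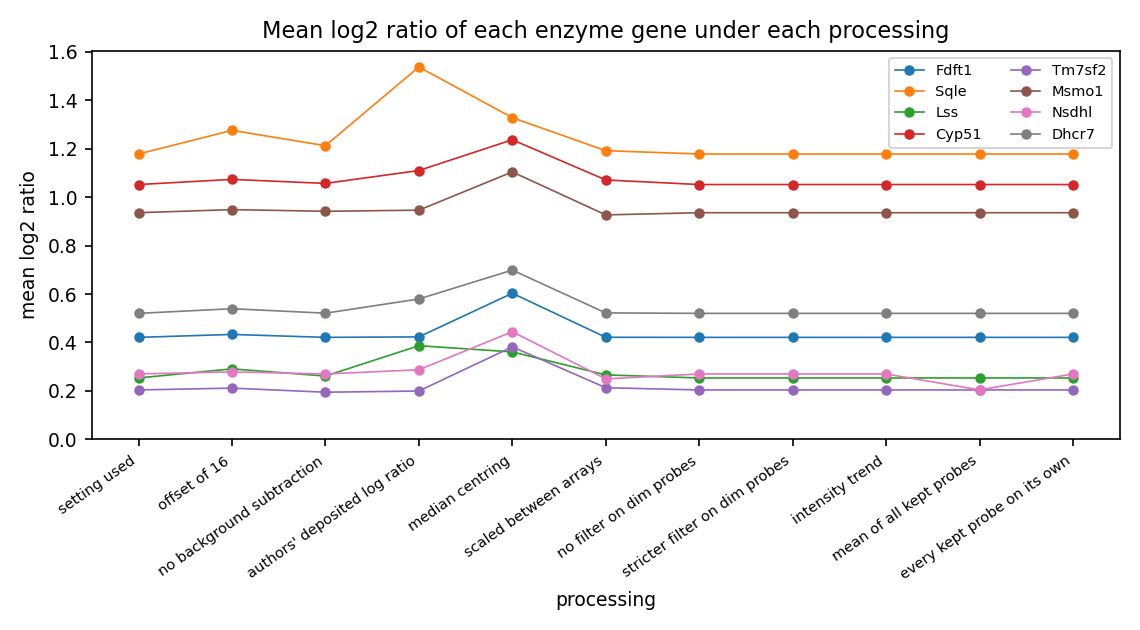
Mean log2 ratio of each of the 8 enzyme genes over 2 arrays (vertical axis) under the processing used and 10 alternatives (horizontal axis). Every mean is above 0 under every processing, Sqle is highest throughout, and the authors' deposited log ratio gives the largest value for Sqle (1.54 against 1.18).

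Genes of the neighbouring steps were read from lists chosen with earlier results of these data known. All 7 listed genes of the mevalonate pathway, which leads from acetyl-CoA to farnesyl diphosphate, rose, with a median log2 ratio of 0.67 and a range from 0.35 to 0.96, led by the farnesyl diphosphate synthase Fdps (0.96 ± 0.04) and the isomerase Idi1 (0.94 ± 0.12). Also among the 7 were Acat2 (0.88 ± 0.10), Mvd (0.67 ± 0.01), Pmvk (0.64 ± 0.04), Mvk (0.37 ± 0.04) and Hmgcs1 (0.35 ± 0.47), whose arrays differed widely (0.02 and 0.69). The call of Hmgcs1 (limma adjusted p = 0.0270) was lost in 6 of the 8 alternatives other than the deposited log ratio and median centring, with limma adjusted p from 0.0292 to 0.101 over the 8. Of the sterol steps outside the set, none of the 3 genes tested passed, with a median of 0.08. Among these, Hsd17b7, which completes the demethylation after Nsdhl, was at 0.27 ± 0.17, while Ebp and Sc5d were at 0.08 ± 0.04 and 0.04 ± 0.09. Differences between sections of the route were not tested.

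Outside the synthetic route, 4 of 26 genes tested were called higher and none lower, against 4.37% and 4.25% of all genes tested. In sterol sensing, Insig1, which holds SCAP in the endoplasmic reticulum, rose by 2.11 ± 0.11 and Srebf1 by 0.30 ± 0.09, and 5 of 7 did not pass. Among those not passing, Srebf2, the gene of SREBP2, was at 0.06 ± 0.11 (limma adjusted p = 0.889). The Srebf2 probe was dim, with raw mean signals of 117 to 153 against a local background of 44 to 50. Insig2 did not pass either, at -0.27 ± 0.07 (limma adjusted p = 0.0917). With every kept probe tested on its own, its probe at -0.47 passed as lower (limma adjusted p = 0.00255). Its probe at -0.21 did not (limma adjusted p = 0.260). The call of Srebf1 (limma adjusted p = 0.0458) was lost in 4 of the same 8 alternatives, with limma adjusted p from 0.0218 to 0.169 over the 8. In uptake and transport, the sterol carrier Stard4 rose by 0.37 ± 0.06, and 3 of 4 did not pass, among them the lysosomal cholesterol transporter Npc1 at -0.25 ± 0.01. Of 5 genes that use farnesyl diphosphate for other products, Dhdds rose (0.39 ± 0.15), although its dimmer probes were at 0.09 and -0.05 and the mean of its probes did not pass (0.14, limma adjusted p = 0.532), and Fntb was at 0.20 ± 0.02. None of 6 esterification and efflux genes passed, Abcg5 being at -0.32 ± 0.52 (well above background on 1 of the 2 arrays in choline-deficient liver) and Abcg1 at 0.15 ± 0.04. None of 4 bile acid hydroxylase genes passed, with Cyp7a1 at 0.15 ± 0.08 and Cyp8b1 at -0.09 ± 0.08.

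**Figure D5:**
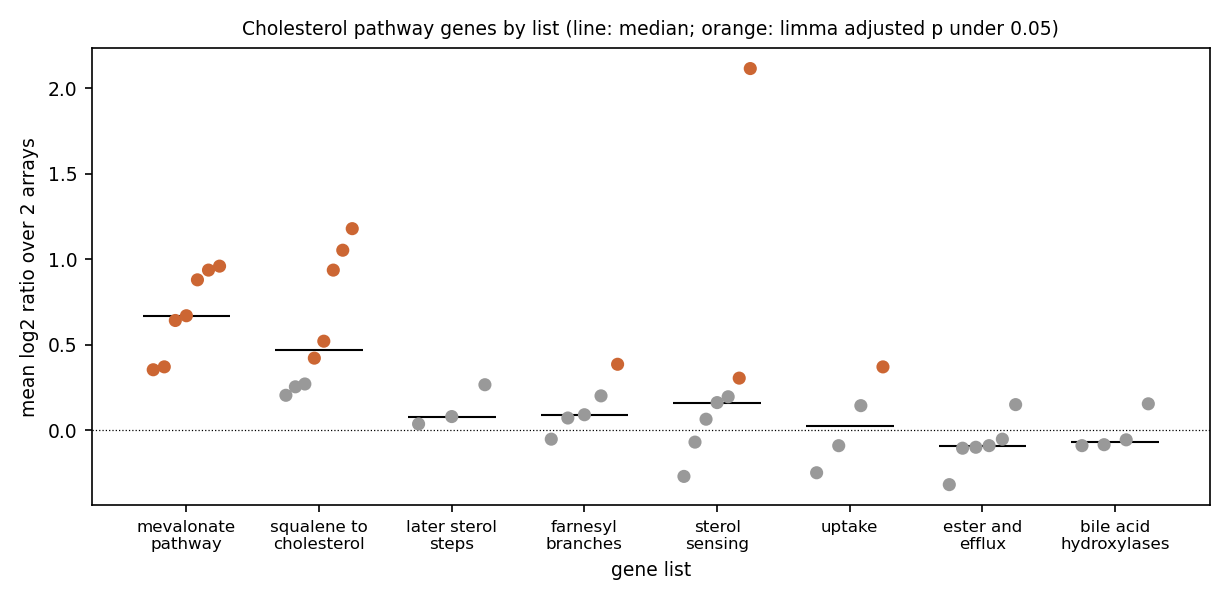
Mean log2 ratio over 2 arrays of each gene tested in the 8 enzyme genes and the 7 other cholesterol lists, with a line at each list's median. Orange genes passed limma's test at an adjusted p under 0.05. The mevalonate genes (median 0.67) and the squalene to cholesterol genes (median 0.47) lie highest as lists, and Insig1 (2.11) is the highest single gene.

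Promoter sequence was at hand for 6 of the 8 genes in the RefSeq table of build GRCr8, which holds the window from 250 bases before to 50 bases after a gene's start; Fdft1 and Sqle were not matched. Motifs of factors known to act on sterol genes were searched on both strands. The CCAAT motif of NF-Y was found in 4 of 6 windows (Lss, Tm7sf2, Msmo1 and Nsdhl), against 37.5% of 33469 promoters in the table, and the GGGCGG box of Sp1 in 5 of 6 (not in Nsdhl), against 33.1%. The core CACNCCAC of the sterol regulatory element was found in 0 of 6 (5.8% of all promoters) and the E-box CACGTG in 0 of 6 (6.42%). These windows held 57.3% to 71.0% G and C, against a median of 51.7% over the table. The 250 bases before the start are shown for the matched genes that passed as higher. They are also shown for Nsdhl, which held the most CCAAT motifs (5) and did not pass. Matches on either strand are in capitals.
Cyp51, chr4:30991443-30991692, plus strand: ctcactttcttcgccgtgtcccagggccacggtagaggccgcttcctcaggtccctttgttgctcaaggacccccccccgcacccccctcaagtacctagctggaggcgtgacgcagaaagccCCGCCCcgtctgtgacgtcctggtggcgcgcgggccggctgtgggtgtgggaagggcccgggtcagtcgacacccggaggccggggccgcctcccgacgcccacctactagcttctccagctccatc
Msmo1, chr16:29746863-29747112, plus strand: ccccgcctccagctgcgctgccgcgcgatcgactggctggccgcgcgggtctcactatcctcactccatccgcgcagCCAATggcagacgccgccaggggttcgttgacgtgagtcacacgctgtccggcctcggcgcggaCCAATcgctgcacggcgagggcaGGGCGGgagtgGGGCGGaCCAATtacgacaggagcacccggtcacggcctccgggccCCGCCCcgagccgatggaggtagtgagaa
Dhcr7, chr1:208444184-208444433, plus strand: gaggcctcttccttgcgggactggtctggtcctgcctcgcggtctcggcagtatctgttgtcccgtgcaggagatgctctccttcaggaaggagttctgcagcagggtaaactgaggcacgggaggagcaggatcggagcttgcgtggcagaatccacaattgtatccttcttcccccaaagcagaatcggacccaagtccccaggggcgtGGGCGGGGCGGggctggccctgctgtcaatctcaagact
Nsdhl, chrX:155817110-155817359, plus strand: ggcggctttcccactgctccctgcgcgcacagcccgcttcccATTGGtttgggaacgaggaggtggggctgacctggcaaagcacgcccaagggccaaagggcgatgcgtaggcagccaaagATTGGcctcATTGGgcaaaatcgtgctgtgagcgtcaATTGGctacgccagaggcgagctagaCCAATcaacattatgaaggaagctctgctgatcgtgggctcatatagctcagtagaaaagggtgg
Msmo1 held 3 CCAAT motifs, at 173, 109 and 68 bases before the start, and 3 GC boxes, whereas Cyp51 and Dhcr7, which also rose, held no CCAAT motif in the window. The GC boxes of Dhcr7 overlap, at 39 and 34 bases before the start. Among the 6 matched genes, the number of matches did not order the genes as their log2 ratios did. A match in this window is no evidence of binding, and a missing match is no evidence against it.

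The genes outside these lists whose pair of array ratios lay nearest to the medians of the set (0.45 on array 1 and 0.49 on array 2), by Euclidean distance over 2 arrays, were Rgs1, Pgm3, Zfp36l2, Palb2 and Melk, at distances from 0.021 to 0.0268. With 2 arrays such likeness says only that the size of the change was alike.

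As a check of the tissue, the hepatocyte genes Alb, Apoa1, Ttr, Serpina1 and Hnf4a were well above background in both diets on both arrays. Apoa1 passed as higher and Alb as lower. The call of Alb was lost when every kept probe was tested on its own (limma adjusted p = 0.0685). Its other probes were then at -0.37 and -0.19 (limma adjusted p = 0.0197 and 0.545). Of 5 Kupffer cell and macrophage markers, Marco rose (0.91 ± 0.13), while Clec4f was at -0.29 ± 0.23, Cd163 at -0.06 ± 0.11, Cd68 at 0.16 ± 0.14 and Csf1r at 0.12 on each array. The summed normalized level of the list (linear units) was 24650 to 26960 in control and 21510 to 24220 in choline-deficient liver, and Clec4f made up 83.2% of the control sum. Of 3 endothelial markers tested, Kdr fell (-0.46 ± 0.17), with sums of 25980 to 30060 in control and 20280 to 20690 in choline-deficient liver, Kdr making up 97% of the control sum. Of 3 erythroid markers, Hbb-b1 fell (-0.44 ± 0.13), with sums of 28680 to 29980 and 20010 to 23550, Hbb-b1 making up 97.7% of the control sum. None of the 3 cholangiocyte, 3 stellate or 1 T cell genes tested passed. The part of cell makeup in the rise of the enzyme genes was not tested.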

How the data were processed

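Per the labels, liver total RNA of each diet was labelled with Cy3 or Cy5 and hybridised on 2 dye-swapped arrays. Per the file headers, the authors' images were extracted with Agilent's Feature Extraction software, version 9.5.3.1 (9.5 per the submitters' processing notes), on a grid of build rn4. The deposited files hold raw intensity per dye, and the authors' log10 ratio of Cy5 over Cy3 and p-value per spot, made per the file headers after detrending and lowess dye normalization. The deposited series table repeats these log10 ratios and was not used separately.

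With limma 3.58.1 in R 4.3.3, raw signals were background-corrected (normexp, offset 50, which draws ratios of dim spots towards 0) and log ratios were loess-normalized per array, giving control spots no weight. Outlier spots (174 and 151) were dropped before spots of a probe were averaged. Probes well above background in at least 1 diet on both arrays were kept (22367), and the kept probe with the highest mean intensity stood for its gene. Each array's log2 ratio was turned to choline-deficient over control and fitted with lmFit and eBayes. With 1 residual against 63.3 prior degrees of freedom, the spread is mostly that pooled over genes. The procedure was tested on simulated data, with noise drawn from the deviations between these 2 arrays. It called 62% of 50 genes changed by 1.3-fold, 96% of 50 changed by 1.5-fold and 48 of 17996 unchanged genes. Smaller changes were not simulated, and such noise cannot show whether calls would hold in other rats. Levels per diet were taken after loess and A-quantile scaling and compare diets within a probe. The genes, lists, motifs and marker genes were chosen with earlier results of these data known. Other genes were named by a rule: those called, up to 2 per list with the largest absolute ratio, and the 5 nearest the medians of the set. Sc5d, Lbr, Insig2 and Srebf2 fall outside it and were chosen after their values were seen, as were the markers named. Some genes of these lists are not reported here, and the lists' counts and medians leave them out. Identity between the enzymes' proteins was planned and is not analysed here.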

Additional observations from a re-analysis of the deposited data

How the results depend on the processing

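Over 10 alternatives, all 8 enzyme genes kept a mean log2 ratio above 0. The count of 5 genes called higher by limma was 0 with the authors' deposited log ratio and 0 with median centring, and 5 in each of the other 8 (an offset of 16, no background subtraction, scaling between arrays, no or a stricter filter on dim probes, an intensity trend, the mean of all kept probes, and every kept probe on its own); none of the 8 genes was called lower under any. The other cholesterol genes called higher were 9 with an offset of 16, with no filter on dim probes and with the mean of all kept probes, 10 with scaling between arrays and with an intensity trend, 11 with no background subtraction and with a stricter filter, and 15 probes when each was tested on its own. They went from 11 to 0 with the deposited log ratio (10 at an unadjusted p under 0.05) and to 0 with median centring (1 at an unadjusted p under 0.05). All genes called went from 795 higher and 773 lower to 0 and 0 under each of these alternatives. Over the other 8, all genes called higher ran from 618 of 33706 with no filter on dim probes to 967 of 18196 with an intensity trend. The count was 632 with an offset of 16, and 792 of 22367 probes when each was tested on its own. Among the other cholesterol genes called lower, 0 became 1 with the mean of all kept probes and 1 with every kept probe on its own, a probe for Insig2 at -0.47 in the latter. The causes were not tested. With 1 array alone, each of the 8 genes was above 0, as given by array above; no test can be run on 1 array. The test is of the ratio between diets within an array, so it already pairs them by array. Beyond that, no paired analysis was possible because the labels tie no control rat to a choline-deficient rat. All 9 probes were well above background, so no fold is a bound set by a signal at background. The offset used draws ratios of dim spots towards 0, however, so folds of dimmer probes may be too small. The log2 ratio of Sqle was 1.18 as processed, 1.28 with an offset of 16 and 1.54 with the deposited log ratio. For Lss these were 0.25, 0.29 and 0.39, and for Tm7sf2 0.20, 0.21 and 0.20.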

Other observations

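Where a cholesterol gene had a brighter and a dimmer kept probe, the arrays could differ in opposite ways at them. For Hmgcs1, the brighter probe gave log2 ratios of 0.02 on array 1 and 0.69 on array 2, and the dimmer probe 0.32 and 0.10. For Hsd17b7, the brighter probe gave 0.14 and 0.39 and the other kept probe 0.23 and 0.06. Nsdhl showed the same order, with 0.10 and 0.44 at the brighter and 0.22 and 0.06 at the dimmer probe. Fdps and Srebf1 showed the other order. Fdps gave 0.99 and 0.93 at the brighter and 0.80 and 1.20 at the dimmer probe. Srebf1 gave 0.37 and 0.24 at the brighter and 0.27 and 0.42 at the dimmer probe. All of these ratios were above 0. At Sc5d, array 1 gave the higher ratio at both probes (0.10 and -0.03 at the brighter, -0.05 and -0.24 at the dimmer). Insig1 was higher at all of its 4 probes on both arrays, with means of 2.11, 1.96 and 1.70 at the 3 brightest. These probes were chosen after their values were seen.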
